A study of Mus musculus with 6 samples.

Results

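The esterase genes described here are the carboxylesterases Ces1f, Ces1g, Ces2a, Ces2b, Ces2c and Ces2e, the arylacetamide deacetylase gene Aadac and the butyrylcholinesterase gene Bche of the intestinal epithelium. They are 8 of the 32285 features of the count tables, matched by gene symbol, and all 8 passed the filter on low counts in enterocyte-like cells, where 12408 genes were tested. The members had been chosen with their levels in enterocytes, their place along the villus and their difference between genotypes in view, so that these values are descriptions and carry no p value.

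Small intestinal mucosa of 3 control littermates (HuR fl/fl, Cre-) and 3 IE-HuR-/- mice (HuR fl/fl crossed with villin-Cre) was dissociated, and each animal gave 1 droplet-based single-cell library. All mice were of C57BL/6 background, were 6 to 8 weeks old, carried the floxed HuR alleles and, per the methods, had been without food for 24 h, whereas the labels give normal feeding. The villin promoter drives Cre in the epithelium, so HuR, an RNA-binding protein encoded by Elavl1, was targeted in epithelial cells only and not in lymphocytes or stroma. Molecules were counted by their unique molecular identifiers (UMIs), and a level (CPM) is a gene's UMIs relative to all UMIs of the same summed cells, so that fewer molecules of a gene per cell and more of the other genes cannot be told apart. Separate animals gave the libraries, and p values measure the spread between them.

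Carboxylesterases are serine hydrolases of the endoplasmic reticulum lumen that cleave ester and amide bonds in drugs, prodrugs, xenobiotics and neutral lipids. The family 2 enzymes are the main carboxylesterases of the small intestine, whereas family 1 enzymes are best known from liver. Aadac is a membrane-bound esterase of the endoplasmic reticulum that deacetylates drugs and hydrolyses lipid esters. Bche is a secreted esterase of broad choline ester specificity, known from plasma and liver.

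The control libraries held 66396951 to 91818560 UMIs in all, and those labelled IE-HuR-/- held 59518012 to 65925616. Of 60706 barcodes, 28869 had at least 2000 UMIs, at least 200 genes and at most 50% mitochondrially encoded UMIs, and 435 barcode sequences occurred in 2 or more libraries. Cells with at least 3% of their UMIs on 12 enterocyte markers, and no share of other markers above the limits, were called enterocyte-like. They numbered 15293, with 1876 to 3759 cells per control library and 2231 to 2276 per labelled library, so that 3 UMIs over the class, the limit that a count of 0 allows, equal 0.0113 CPM. Another 981 cells were goblet-like, 222 enteroendocrine-like, 151 tuft-like, 99 progenitor-like and 12 Paneth-like, and 4324 were T or NK-like. All 12 enterocyte markers and all 8 goblet markers were detected in their classes. A cut on a marker share is a range and not a type, and 2121 enterocyte-like cells had a share between 3 and 4%.

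Elavl1 was found at 29.0, 30.4 and 28.5 CPM in enterocyte-like cells of the control libraries and at 29.5, 29.99 and 30.6 CPM in those labelled IE-HuR-/-. The ranges overlapped, and the log2 fold change was 0.22 ± 0.050 with TMM scaling (SE, edgeR adjusted p = 0.000246) and 0.04 ± 0.049 with library totals alone (adjusted p = 0.535). The sources used here do not give the deleted exons and differ on whether 5′ or 3′ ends of transcripts were read, and reads at either end need not lie in the deleted part, so this level is no check of the labels. Libraries are named by their labels throughout, and a direction between groups rests on those labels.

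The 4 family 2 genes lie within 200670 bases of mouse chromosome 8 (mm10, which is GRCm38, GENCODE M21) and all are on the plus strand: Ces2a at chr8:104734003-104741634, Ces2b at chr8:104831572-104840093, Ces2c at chr8:104847068-104854483 and Ces2e at chr8:104926260-104934672, each with 12 exons. Between Ces2a and Ces2e the annotation also has 5 pseudogenes, none of which was among the genes tested. Ces2d-ps, which is among them, is not a feature of the count tables, so no level can be given for it. Ces1f (chr8:93256236-93279747) and Ces1g (chr8:93302369-93337308) are neighbours on the minus strand of the same chromosome, with 14 exons each. Aadac (chr3:60025717-60040160, plus strand, 5 exons) and Bche (chr3:73635808-73708415, minus strand, 4 exons) are both on chromosome 3, but 13595647 bases apart.

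Promoter windows of 3 genes of the family 2 cluster are shown because these neighbours differed in level between the groups by unlike amounts, as given further on. They are RefSeq windows of GRCm38.p6, 250 bases before to 30 bases after the annotated start, on the plus strand, and capitals mark every run of at least 10 bases that also occurs in one of the other 2 windows.
Ces2a, chr8:104733753-104734032: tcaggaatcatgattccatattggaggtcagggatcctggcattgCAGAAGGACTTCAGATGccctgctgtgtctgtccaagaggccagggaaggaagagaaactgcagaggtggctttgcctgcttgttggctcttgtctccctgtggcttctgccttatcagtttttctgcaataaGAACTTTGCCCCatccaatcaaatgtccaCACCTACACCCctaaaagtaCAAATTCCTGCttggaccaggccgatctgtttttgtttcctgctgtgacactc
Ces2c, chr8:104846818-104847097: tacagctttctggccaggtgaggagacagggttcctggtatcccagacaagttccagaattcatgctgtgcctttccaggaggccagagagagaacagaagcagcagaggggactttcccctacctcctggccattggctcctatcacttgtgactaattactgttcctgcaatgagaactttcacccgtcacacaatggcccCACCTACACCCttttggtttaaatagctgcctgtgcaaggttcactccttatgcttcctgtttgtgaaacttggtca
Ces2e, chr8:104926010-104926289: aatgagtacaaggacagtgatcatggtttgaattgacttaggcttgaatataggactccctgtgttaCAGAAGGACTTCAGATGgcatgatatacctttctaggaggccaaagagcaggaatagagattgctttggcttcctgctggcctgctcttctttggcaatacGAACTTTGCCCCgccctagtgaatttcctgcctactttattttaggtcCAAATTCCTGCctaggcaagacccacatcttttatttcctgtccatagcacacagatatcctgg

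In these windows Ces2a shared 3 runs with Ces2e, the longest of 17 bases, and 1 run of 11 bases with Ces2c. Where they aligned, Ces2a and Ces2e were identical at 69.4% of 245 bases, Ces2a and Ces2c at 68.0% of 272 bases and Ces2c and Ces2e at 63.1% of 244 bases. Motifs were searched on both strands of the 6 member windows that the RefSeq table holds (Ces1g, Ces2a, Ces2c, Ces2e, Aadac and Bche). The nuclear receptor half-site AGGTCA was found in Ces2a only, from position −226 relative to the start, and stands in 15.3% of all 32851 promoters. TATAAA was found in Ces1g only, from position −26 on the opposite strand, against 13.1% of all promoters, and AGATAA in Ces1g only, against 10.7%. The HNF1 half-site GTTAAT, found in 6.85% of all promoters, the CDX2-type site CAATAAA, found in 4.45%, and the HNF4-type site CAAAGTC, found in 4.22%, were in none of the 6 windows. Only the exact letters given were searched, so other forms of these sites were not looked for. The Aadac window follows the RefSeq start, which lies inside the longer GENCODE gene.

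Transcripts of the family 2 genes are alike enough to share reads. Ces2b and Ces2c were identical at 91.6% of 1952 aligned transcript bases and the other pairs at 75.1% to 81.6%, whereas Ces1f and Ces1g were identical at 72.6% of 1891. Of the windows of 60 bases in the Ces2c transcript, 35.3% also occurred in a transcript of another gene, against 18.3% for Ces2a, 5.14% for Ces2b, 1.67% for Ces2e, 0.644% for Ces1g, 0.536% for Ces1f and none for Aadac and Bche. Of these shared windows 57 of 675 in Ces2c, 70 of 348 in Ces2a and 18 of 172 in Ces2b began in the first 500 bases. In Ces2e 24 of 44 began there, in Ces1g 15 of 15 and in Ces1f 10 of 10. Counts of Ces2c and Ces2a, and of Ces2b against Ces2c, are therefore less certain where reads fall in a shared stretch. Which of these genes is the more affected depends on the end that was read. The pentamer ATTTA, part of many AU-rich elements, occurred in the 3′ UTR of 7 of the 8 genes, against 65.3% of the 11160 tested genes with an annotated 3′ UTR, with 11 copies in the 4109 bases of Bche, 4 in Ces2b, 3 in Ces2e and none in Ces1g. The median 3′ UTR of the tested genes was 936 bases long and the median number of copies was 1.

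In enterocyte-like cells of the control libraries 3 family 2 genes stood far above the other members. Ces2a was found at 1367, 1412 and 1452 CPM, Ces2e at 1276, 1279 and 1358 CPM and Ces2c at 731, 720 and 796 CPM, which placed Ces2a 72nd, Ces2e 76th and Ces2c 143rd of all features by mean level. UMIs count molecules at 1 end, so these levels were not divided by transcript length. Bche followed at 114, 110 and 116 CPM, and then Ces1f at 89.9, 87.6 and 97.7 CPM and Aadac at 87.2, 91.6 and 96.1 CPM. Ces2b had 22.1, 18.6 and 26.4 CPM and Ces1g 21.9, 21.6 and 23.0 CPM. The libraries of 1 gene lay apart from those of the next in this order, except that Ces1f overlapped Aadac and Ces2b overlapped Ces1g.

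The order was another in the libraries labelled IE-HuR-/-. Ces2e led at 1110, 1093 and 1101 CPM, while Ces2a had 544, 531 and 533 CPM and overlapped Ces2c, which had 536, 526 and 536 CPM. Ces1f came next at 72.4, 72.6 and 82.2 CPM. Bche had 26.1, 24.8 and 27.0 CPM and overlapped Aadac at 23.0, 21.8 and 24.97 CPM. Ces1g had 17.1, 15.3 and 16.6 CPM, and Ces2b was lowest at 7.12, 6.71 and 7.65 CPM.

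**Figure D1:**
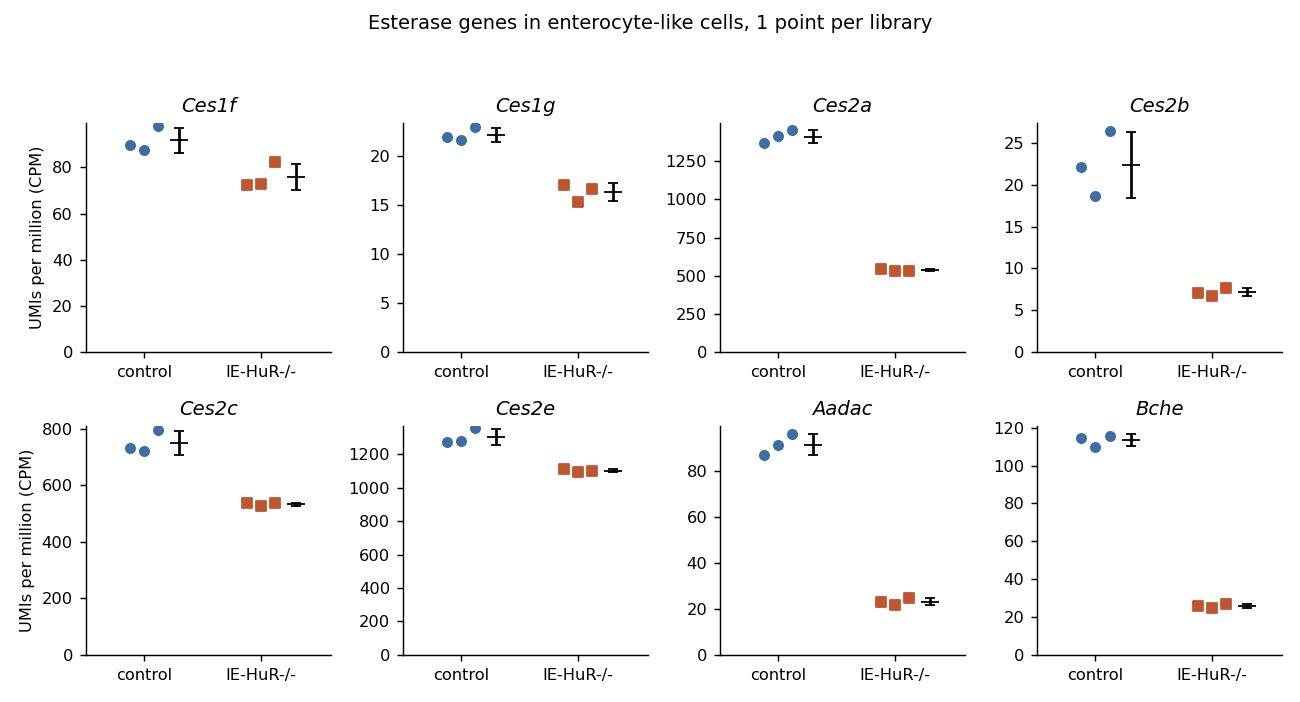
Level (CPM) of each gene in enterocyte-like cells, 1 point per library, with the mean and SD of 3 libraries beside the points and each axis starting at 0. In all 8 panels the 3 control libraries lie above the 3 labelled IE-HuR-/-, with the widest gaps for Ces2a, Ces2b, Aadac and Bche and narrow ones for Ces1f and Ces2e.

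For all 8 genes the lowest control library was above the highest labelled one on this scale, which was also so for 52.9% of all genes tested. Together the 8 genes took 0.380% ± 0.0140 of the UMIs in control enterocyte-like cells and 0.232% ± 0.00243 in the labelled ones (SD, n = 3). Within the family 2 members, Ces2a gave 40.5% ± 0.630 of their summed UMIs in the control and 24.6% ± 0.130 in the labelled libraries, while Ces2e gave 37.4% ± 0.143 and 50.6% ± 0.0827 and Ces2c 21.5% ± 0.467 and 24.5% ± 0.133. The ratio of Ces2a to Ces2e, which no scaling between libraries can move, was 1.07, 1.10 and 1.07 in the control libraries and 0.490, 0.486 and 0.484 in the labelled ones. The ratio of Ces1f to Aadac was 1.03, 0.956 and 1.02 against 3.15, 3.33 and 3.29.

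Fitted over all genes with TMM scaling, the members differed in size of difference. Bche (log2 fold change −1.94 ± 0.050, SE) and Aadac (−1.79 ± 0.053) were furthest below the control libraries. Ces2b (−1.45 ± 0.161) and Ces2a (−1.21 ± 0.044) followed, and the differences of Ces2c (−0.31 ± 0.045) and Ces1g (−0.25 ± 0.060) were smaller. Ces1f (−0.09 ± 0.053) and Ces2e (−0.06 ± 0.044) did not pass the threshold. Thus 6 of 8 members were called lower and none higher, where 31.0% of all genes tested were called lower, and since this difference had chosen the members nothing is read from that count.

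The scaling decides the calls of the genes that moved least. The median log2 fold change of all genes was −0.03 with TMM and −0.22 with library totals alone, and without TMM all 8 members were called lower, where 50.4% of all genes were. Of all genes 3440 were called higher and 3842 lower with TMM, against 1758 and 6251 without it. Ces1f and Ces2e had −0.28 and −0.24 without TMM, near the median of all genes, and the direction of Bche, Aadac, Ces2a and Ces2b was the same under both.

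The cells of the 2 groups also differed in regional genes. Fabp6, the ileal bile acid binding protein, was at 709, 750 and 686 CPM in control enterocyte-like cells and at 2957, 3023 and 2855 CPM in the labelled ones. The 8 distal genes together took 0.313% to 0.327% of the UMIs in the control and 0.584% to 0.608% in the labelled libraries, and the 6 proximal genes 0.195% to 0.214% against 0.151% to 0.160%, with none of the 14 genes at 0 in either group. The methods name the middle small intestine for the tissue used in histology and in protein and RNA extraction. The sources used here give no segment of the small intestine for these libraries, so a difference in segment cannot be told apart from the labels.

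Members differed in how they stood in cells rich in ileal genes. Cells with Fabp6 and Slc10a2 under 0.05% of their UMIs were 90.8% to 91.6% of enterocyte-like cells in the control and 78.6% to 79.8% in the labelled libraries, and cells with at least 0.4% were 4.34% to 4.74% and 11.6% to 13.2%. Aadac had 98.8 ± 4.70 CPM in the cells low in ileal genes and 7.50 ± 5.20 CPM in those high in them in the control libraries (SD, n = 3), and 28.0 ± 1.52 and 0.735 ± 0.198 CPM in the labelled ones. The values in cells high in ileal genes rest on 52 and 12 UMIs. Ces1f, Ces1g, Ces2b, Ces2c and Bche were also lower in the cells high in ileal genes, with Ces1f at 96.7 ± 5.19 against 42.3 ± 10.1 CPM and Bche at 118 ± 2.92 against 63.8 ± 3.19 CPM in the control libraries. Ces2e had 1294 ± 42.5 CPM in control cells low in ileal genes and 1476 ± 106 CPM in those high in them, and Ces2a had means of 1394 and 1475 CPM, so these 2 were not lower there.

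**Figure D2:**
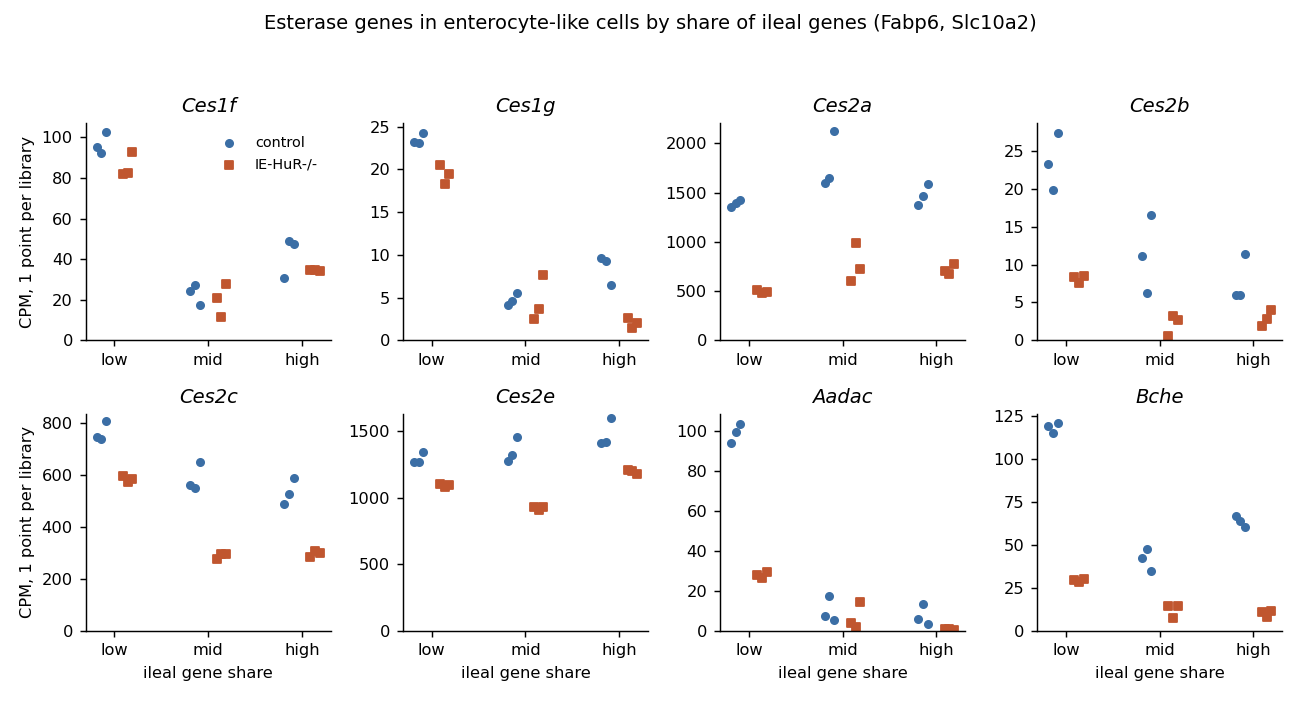
CPM of each gene in enterocyte-like cells grouped by the share of their UMIs on Fabp6 and Slc10a2 (low under 0.05%, high at least 0.4%), 1 point per library. Aadac lies near 0 in cells high in ileal genes, and Ces2a and Ces2e are not lower there. Within the cells low in ileal genes the control libraries lie above the labelled ones for every gene but Ces1f, whose ranges overlap. Over all enterocyte-like cells such a separation was found for 52.9% of all genes tested, and for these cells it was not counted.

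The differences of the 4 genes that moved most were of like size in cells low in ileal genes. There Ces2a was at 1358, 1397 and 1425 CPM in the control and at 511, 481 and 485 CPM in the labelled libraries, a ratio of 2.83. Aadac was at 94.0, 99.3 and 103 CPM against 28.1, 26.5 and 29.5 CPM, and Bche at 119, 115 and 121 CPM against 29.5, 28.6 and 30.1 CPM, with ratios of 3.53 and 4.03. In this fit, chosen after the data had been seen, 5 members were called lower, where 27.2% of the 12114 genes tested were, and Ces1g, Ces1f and Ces2e were not. The cells low in ileal genes had a mean villus index, described next, of −0.0655 to 0.00746 in the control and 0.0950 to 0.186 in the labelled libraries, and those high in ileal genes of −0.481 to −0.386 and −0.593 to −0.437. In the cells low in ileal genes Fabp6 still had means of 14.8 CPM in the control and 46.3 CPM in the labelled libraries. Neither this remaining ileal difference, nor the position, nor the proximal genes were matched, and their part in the result was not tested.

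Along the villus the members took opposite courses. An index was built from 8 villus tip genes and 10 lower villus genes, as the mean scaled level of the former minus that of the latter, and the enterocyte-like cells of each library were cut by it into 3 equal parts (lower, middle and upper) and into 5 equal bins. From the lowest to the highest bin of the control libraries Ces2a went from 931 ± 11.9 to 2089 ± 83.2 CPM, Ces2b from 7.25 ± 1.51 to 42.0 ± 8.35 CPM and Ces2c from 591 ± 16.3 to 907 ± 60.7 CPM (SD, n = 3). In the labelled libraries the same 3 genes went from 374 ± 10.7 to 802 ± 5.33 CPM, from 3.54 ± 1.37 to 11.3 ± 1.22 CPM and from 423 ± 5.49 to 667 ± 15.2 CPM.

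Ces1f took the opposite course, from 196 ± 13.7 to 11.4 ± 0.557 CPM in the control and from 164 ± 7.92 to 9.07 ± 3.10 CPM in the labelled libraries. Ces1g went from 35.3 ± 3.30 to 5.26 ± 0.645 CPM, Aadac from 156 ± 6.24 to 23.7 ± 0.426 CPM and Bche from 159 ± 14.6 to 44.8 ± 2.59 CPM in the control libraries. Ces2e was nearly level, at 1302 ± 51.6 CPM in the lowest, 1378 ± 55.4 CPM in the middle and 1179 ± 27.9 CPM in the highest bin of the control libraries. In these libraries Ces2a was above Ces2e in the highest bin and below it in the lowest, whereas in the labelled libraries it was below Ces2e in both, with 802 against 991 CPM in the highest.

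**Figure D3:**
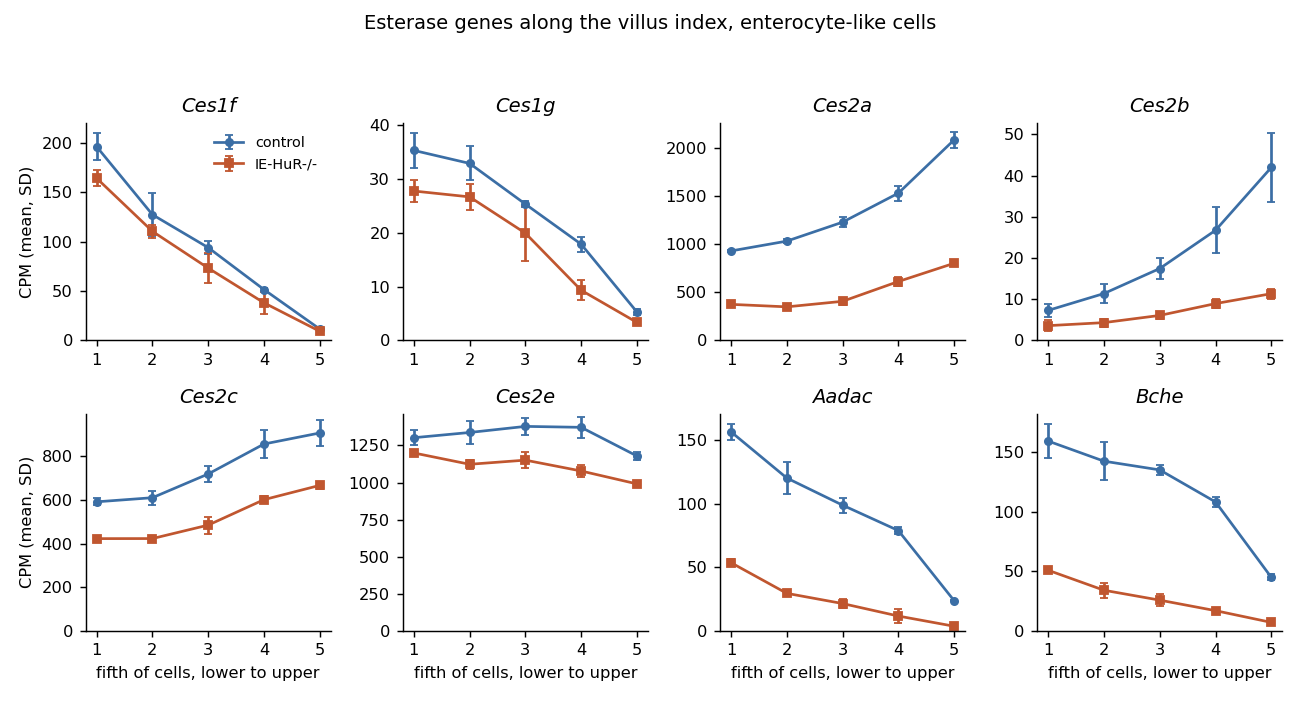
Mean CPM (error bars, SD over 3 libraries) of each gene in 5 equal groups of enterocyte-like cells, from the lowest (1) to the highest (5) villus index. Ces2a, Ces2b and Ces2c climb toward the tip, Ces1f, Ces1g, Aadac and Bche decline, and Ces2e changes little, in both groups.

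From the lower to the upper part 5 members were lower in all 6 libraries and 3 were higher in all 6, and the median log2 ratio of all genes tested was between −0.17 and −0.29. Ces2e, counted as lower, had mean ratios of −0.07 and −0.21 in the control and labelled libraries, nearer to level than the medians of −0.20 and −0.27. The share of all genes with such a course was not counted, so nothing is read from these counts. The course of 5 members depends on the index. A second order used the tip genes alone, by their summed share of a cell's UMIs and not by scaled levels. Abundant tip genes such as Apoa4 weigh more in it, so it differs from the index in weighting as well as in genes. By this order Ces2a, Ces2b and Ces2c were still higher in the upper part. Ces1g, Ces2e, Aadac and Bche were now also higher there in the control libraries. Their mean log2 ratios were 1.29, 0.56, 0.94 and 0.37 in place of −1.88, −0.07, −1.78 and −1.23, and Ces1f had −0.08 in place of −2.89. In the labelled libraries Ces1g and Ces2e turned likewise, and Aadac and Bche did not. Other properties of the cells moved with the index. From the lowest to the highest of the 5 bins the median depth per library was 6967.5 to 10348 and 14813.5 to 24037 UMIs, the median mitochondrial share 0.968% to 3.28% and 13.1% to 16.4%, and the median share of ribosomal protein mRNA 2.07% to 2.79% and 0.402% to 0.466%, whose part in these courses was not tested.

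Whether the difference between labels changed along the villus had not been used to choose the members, and was tested with the library as a block. Aadac was at 135, 143 and 150 CPM in the lower part of the control libraries and at 45.1, 46.4 and 48.0 CPM in those labelled IE-HuR-/-. In the upper part it was at 39.5, 40.6 and 42.0 CPM against 5.03, 3.88 and 7.84 CPM. The ratio of the means was 3.07 in the lower, 4.96 in the middle and 7.29 in the upper part. The difference of the log2 differences was −1.19 ± 0.173 (SE, edgeR adjusted p = 0.00138).

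Bche had 161, 139 and 159 CPM in the lower part of the control and 44.1, 46.7 and 46.0 CPM in that of the labelled libraries, and 62.8, 65.0 and 65.2 CPM against 9.77, 8.87 and 10.3 CPM in the upper part. The ratio of the means was 3.36, 5.23 and 6.66 from the lower to the upper part, and the difference of the log2 differences was −0.93 ± 0.086 (SE, edgeR adjusted p = 2.12e-09). In both genes the libraries of the groups did not overlap in any of the 3 parts. Over all enterocyte-like cells this was so for 52.9% of all genes tested, and it was not counted by part. With tip genes alone the difference was also larger in the upper part (Aadac −1.36, Bche −1.12). So it was with cuts common to all libraries (−0.94 and −0.71) and in cells low in ileal genes (−1.43 and −1.07). Tip genes of the index themselves differed between the groups within a bin. In the middle of the 5 bins Ada had means of 308 CPM in the control and 914 CPM in the labelled libraries. Apoa4 went the other way there, with 12376 and 8544 CPM. A part of the index need not be the same villus position in both groups, and what this adds to the interactions was not tested.

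**Figure D4:**
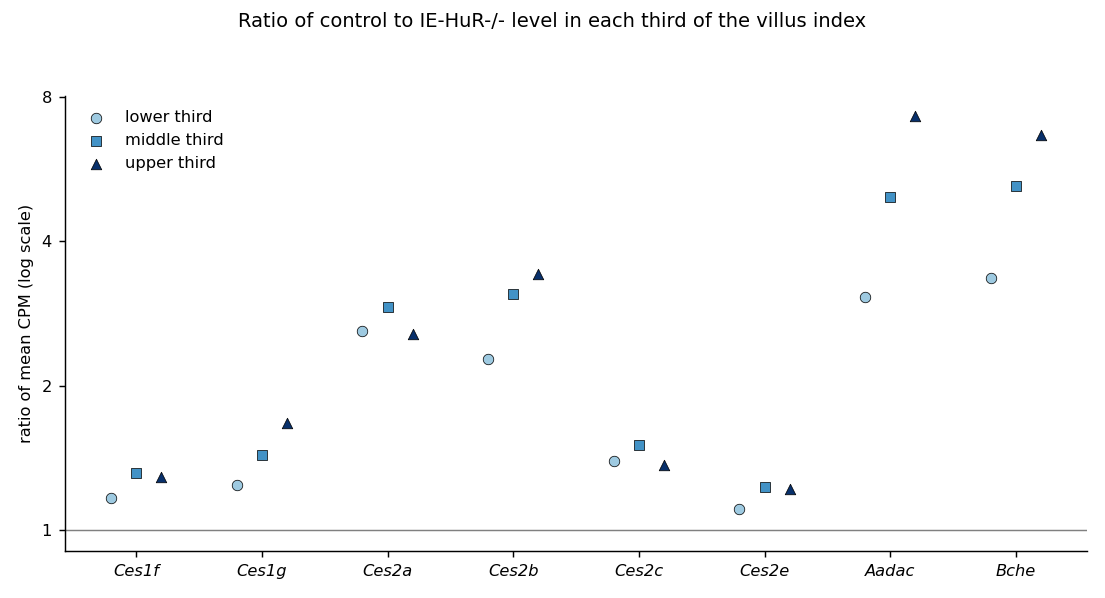
Ratio of the mean CPM of the control libraries to that of the libraries labelled IE-HuR-/- (log scale) in the lower, middle and upper part of enterocyte-like cells by villus index. The ratio climbs from 3.07 to 7.29 for Aadac and from 3.36 to 6.66 for Bche, and stays between 2.56 and 2.92 for Ces2a.

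No other member passed this test. Ces2a had ratios of 2.60, 2.92 and 2.56 in the 3 parts and an interaction of 0.09 ± 0.044 (SE, adjusted p = 0.167), and Ces2c 0.09 ± 0.047 (adjusted p = 0.163). Ces2e had −0.08 ± 0.043 (adjusted p = 0.188) and Ces1f −0.08 ± 0.224 (adjusted p = 0.842). Ces1g (−0.36 ± 0.139, adjusted p = 0.0595) and Ces2b (−0.49 ± 0.185, adjusted p = 0.0594) were near the threshold, and both passed it in the cells low in ileal genes. Thus 2 of 8 members were called, where 24.6% of all genes tested were, with the edgeR quasi-likelihood test.

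In cells of 1 fixed depth the same genes were found in fewer cells. With each enterocyte-like cell of at least 5000 UMIs thinned to that number, Ces2a was detected in 88.8% to 93.8% of cells of the control and 70.3% to 74.8% of those of the labelled libraries. Aadac was detected in 22.2% to 24.95% against 6.37% to 7.92% and Bche in 32.6% to 33.5% against 8.25% to 9.29% of cells, whereas Ces2e was detected in 89.0% to 94.4% against 86.5% to 89.3%. Between 471 and 1198 shallower cells per library were left out, and without thinning Ces2a was detected in 82.2% to 85.6% and 68.1% to 72.4% of cells, at median depths of 9589 to 15673 UMIs and 10169.5 to 11188 UMIs. T or NK-like cells, which should lack these RNAs, had thinned shares of 27.9% to 54.9% and 10.5% to 13.95% for Ces2a. For Aadac they were 3.72% to 5.93% and 0 to 0.634%, and for Bche 6.50% to 13.8% and 0.891% to 1.48%. Of the T or NK-like cells 132 to 552 per library, under 5000 UMIs, were left out of these shares. Before thinning, the median depths of all T or NK-like cells were 4353 to 5725 and 4608 to 5233.5 UMIs. The enterocyte-like shares of these 3 genes were above those of T or NK-like cells in every library, and whether the latter come from free RNA or from doublets was not tested.

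In the other classes the RNA of the members has to be read against these shares. In T or NK-like cells the level of Ces2a was 4.68% to 10.8% of that in enterocyte-like cells of the same control library, and the summed enterocyte markers were at 4.68% to 10.8% as well. Ces1f was there at 4.80% to 10.0%, Ces1g at 4.72% to 14.8% and Ces2e at 6.68% to 16.4%. Higher shares were found for Ces2c (8.75% to 18.6%), Aadac (9.02% to 15.4%), Ces2b (11.0% to 18.6%) and Bche (10.3% to 26.7%). In control goblet-like cells Ces2a was at 827, 882 and 744 CPM, 51.3% to 62.5% of the enterocyte level, while the enterocyte markers were at 51.4% to 54.5%. Tuft-like and enteroendocrine-like cells held Ces2a at 39.2% to 63.1% and 45.0% to 46.7% of the enterocyte level in the control libraries. The gates let cells with some enterocyte RNA into these classes, and the part of such RNA in their values was not tested beyond the split below.

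Of the 8 genes, 5 were higher in enterocyte-like cells than in goblet-like, tuft-like, enteroendocrine-like and progenitor-like cells of all libraries, and the exceptions were Ces1g, Ces2b and Aadac in classes of few UMIs. The members had been chosen with their enterocyte levels in view, and the share of all genes was not counted, so nothing is read from this count. Among the classes compared Ces2a was lowest in progenitor-like cells of the control libraries, at 41.9, 89.9 and 16.2 CPM. Aadac was not low there, with 52.3, 111 and 64.7 CPM in the control libraries and 8.37 to 41.8 CPM in the labelled ones, 60.02% to 121% and 38.4% to 167% of its enterocyte level, while the enterocyte markers were at 3.35% to 6.40% and 5.11% to 26.6%. These levels rest on 49 UMIs in 99 cells. In 12 Paneth-like cells no member had more than 14 UMIs.

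Goblet-like cells showed lower levels of the same genes in the labelled libraries, and lower levels of enterocyte markers too. These markers were at 51.4% to 54.5% of their enterocyte level in the control and 32.2% to 43.2% in the labelled libraries, and their part in the result was not tested beyond the cells low in them. Ces2a was at 297, 323 and 283 CPM there, Bche at 56.1, 57.8 and 59.4 CPM in the control and 9.29, 10.2 and 11.1 CPM in the labelled libraries, and Aadac at 46.7, 44.8 and 40.6 against 4.25, 10.5 and 3.98 CPM. The groups did not overlap for any of these 3 genes, but the share of all genes with such a separation was not counted in goblet-like cells. The log2 fold changes were −2.68 ± 0.217 for Aadac, −2.32 ± 0.138 for Bche, −1.68 ± 0.267 for Ces2b, −1.26 ± 0.101 for Ces2a, −0.67 ± 0.106 for Ces2c and −0.43 ± 0.100 for Ces2e (SE). With these 6 members were called lower, where 12.7% of 9029 genes were, and Ces1g (−0.70 ± 0.383) and Ces1f (0.11 ± 0.110) were not called. Since the members had been chosen with label differences known, nothing is read from this count.

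**Figure D5:**
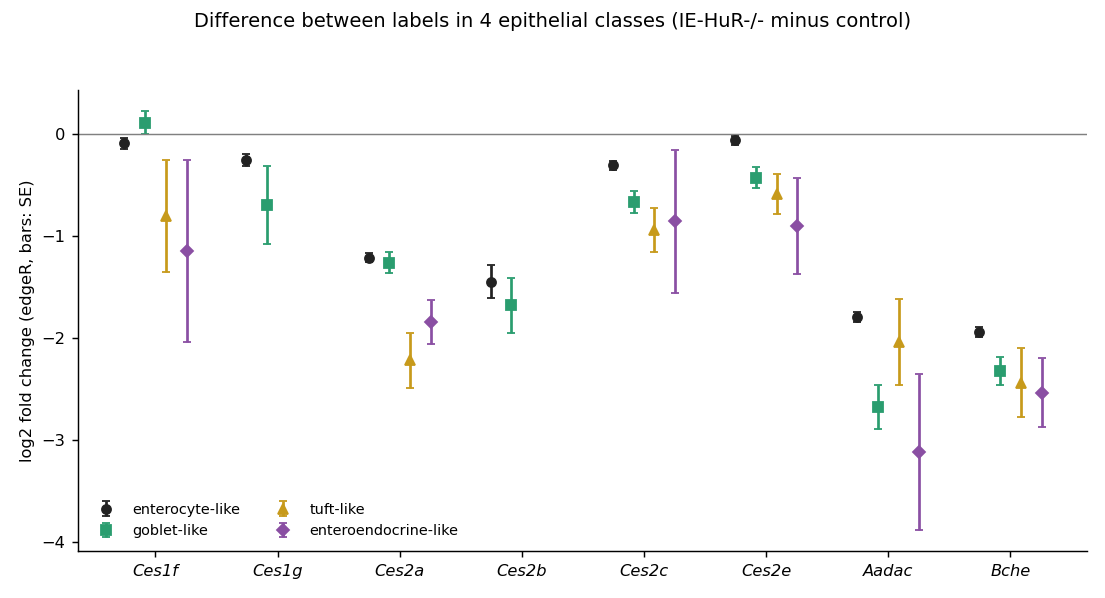
Log2 fold change of each gene, labelled IE-HuR-/- minus control, in 4 classes (edgeR, error bars SE), shown where the gene passed the filter on low counts of the class. Ces2a, Aadac and Bche lie more than 1 below 0 in every class shown.

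In the goblet-like cells at or below the class median in enterocyte markers, where 5 members could be tested, Ces2a (−2.21 ± 0.202), Bche (−3.17 ± 0.438), Ces2c (−0.78 ± 0.180) and Ces2e (−0.79 ± 0.219) were called lower and Ces1f higher (1.26 ± 0.276), where 6.50% of genes were called lower. Tuft-like cells gave 4 members called lower of 6 tested, Bche (−2.43 ± 0.339), Ces2a (−2.22 ± 0.270), Aadac (−2.04 ± 0.420) and Ces2c (−0.94 ± 0.218), where 1.38% of genes were. Enteroendocrine-like cells gave 2, Bche (−2.53 ± 0.340) and Ces2a (−1.84 ± 0.218), where 0.341% were. In progenitor-like cells 2 members could be tested and none was called, and edgeR called none of 2796 genes after adjustment and 233 at an unadjusted p under 0.05. All classes of an animal share its library and any free RNA, so they are not independent. The members had been chosen with label differences known, so nothing is read from the counts called in these classes.

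A direct test of goblet-like against enterocyte-like differences, not used to choose the members, called none of the 8 genes, where 4.45% of all genes were called. The closest were Ces2e (−0.34 ± 0.109, edgeR adjusted p = 0.0804), Aadac (−0.86 ± 0.274, adjusted p = 0.108) and Ces2c (−0.33 ± 0.123, adjusted p = 0.139), and Ces2a had −0.02 ± 0.109. On simulated counts this test recovered 135 of 200 genes changed by 1 on the log2 scale. The simulated spread between libraries was smaller than the fitted one, so this recovery may be too high for these data. With the goblet-like cells at or below the class median in enterocyte markers 4 members were called, where 665 of 12293 genes tested were. They were Ces2a (−0.99 ± 0.216), Ces2e (−0.72 ± 0.180), Ces1f (1.37 ± 0.265) and Aadac, whose fitted size then depends on the prior count.

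The other genes of the family were sparse in enterocyte-like cells. The 3 lists of other genes, like the members, had been chosen with earlier results of these data known. Their counts and p values, here and in the next paragraphs, are therefore given as a description. Of 18 further family genes that were annotated 7 passed the filter on low counts. With TMM 5 were lower and none higher, where 31.0% of all genes were called lower and 58.7% in either direction. Their median log2 fold change was −0.64, where that of all genes was −0.03. With library totals alone 6 were lower, where 50.4% of all genes were, and the median was −0.83. Ces2g, a family 2 gene, was at 15.3, 15.4 and 19.3 CPM in the control and 8.78, 7.54 and 9.23 CPM in the labelled libraries (−0.78 ± 0.108, SE, edgeR adjusted p = 7.64e-05). Nceh1, a neutral cholesterol ester hydrolase related to Aadac, was at 19.9, 20.1 and 20.2 CPM against 14.6, 13.0 and 13.8 CPM (−0.35 ± 0.062, adjusted p = 6.14e-06). Ces1d, Ces1e and Ces2h, each under 7 CPM, were the other 3 lower genes, and Ces3a and Ache did not pass the test.

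Other esterases and lipid hydrolases moved in both directions, and the scaling decides which was the more frequent. Of 44 tested, 24 were higher and 13 lower with TMM, where 27.7% of all genes were called higher and 31.0% lower, and their median log2 fold change was 0.14. With library totals alone 12 were higher and 19 lower, and the median was −0.05. Of all 12408 genes 1758 were then called higher and 6251 lower, with a median of −0.22. The genes named next had the same direction under both scalings. Pnpla7, a lysophospholipase, was at 12.3, 13.1 and 14.2 CPM in the control and 36.7, 38.6 and 34.8 CPM in the labelled libraries (1.66 ± 0.059, SE, edgeR adjusted p = 9.09e-24), and Enpp7, the intestinal alkaline sphingomyelinase, at 275, 283 and 279.4 against 425, 419 and 416 CPM (0.78 ± 0.042, adjusted p = 2.80e-18). Faah, fatty acid amide hydrolase, was at 84.1, 86.4 and 89.3 against 45.2, 44.3 and 51.4 CPM (−0.70 ± 0.051, adjusted p = 2.30e-14), and Abhd14b also fell (−0.72 ± 0.071, adjusted p = 3.82e-11).

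Transcription factors known to act on drug-metabolising and enterocyte genes moved in both directions, with 3 of 13 higher, 6 lower and a median log2 fold change of −0.12, beside the same 27.7% and 31.0% of all genes. With library totals alone 1 of 13, Hnf4a, was higher and 9 were lower, with a median of −0.31. Of all 12408 genes 1758 were then called higher and 6251 lower, with a median of −0.22. Nr1i3, the constitutive androstane receptor, was at 65.0, 70.8 and 64.5 CPM in the control and 44.3, 44.2 and 49.3 CPM in the labelled libraries (−0.35 ± 0.049, SE, edgeR adjusted p = 1.00e-07). Cdx2, an intestinal homeobox factor, was at 93.1, 98.3 and 97.9 against 54.7, 59.7 and 59.3 CPM (−0.55 ± 0.048, adjusted p = 1.86e-12), Nr1h3, an oxysterol receptor, had −0.21 ± 0.049 (adjusted p = 0.000349), and Hnf4a was higher, at 305, 293 and 301 CPM in the control and 348, 348 and 332 CPM in the labelled libraries (0.38 ± 0.043, adjusted p = 1.44e-09).

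Over 42 sums (6 libraries by the lower, middle and upper part of enterocyte-like cells and by 4 other classes) likeness was measured as Pearson r of log2(CPM + 1). Ces2c and Ces2e were the most alike members (r = 0.96), the other pairs of family 2 members had 0.74 to 0.90, Aadac and Bche had 0.78, and Ces2a and Aadac had 0.27. Among 10513 other genes the 3 most like Bche were Cyp2c66 (0.91), Cyp2b10 (0.90) and Cyp3a25 (0.87), all cytochrome P450 genes, and Cyp2b10 is also one of the 6 proximal genes. Those most like Ces2a were Abcb1a (0.95), Podn (0.93) and Slc46a1 (0.93), where Abcb1a encodes the efflux pump P-glycoprotein and Slc46a1 the proton-coupled folate transporter.

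Ces2c was most like Prap1 (0.98), Cyp3a13 (0.97) and Alpi (0.96), and Ces2e was like Cgref1 (0.98) and Prap1 (0.98), and Alpi, an alkaline phosphatase, is an enterocyte marker of the gate. Ces1f was most like Gstm3 (0.91), Gsta1 (0.90) and Arg2 (0.89), Ces1g like Lrat (0.87), Mgam (0.86) and Tubal3 (0.85), Ces2b like Acox2 (0.89), Spryd7 (0.88) and BC005537 (0.86), and Aadac like Pfn1 (0.88), Tinag (0.87) and Aamdc (0.86). The sums of 1 library share depth and any free RNA, and the values are descriptions.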

How the data were processed

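The authors deposited, for each of 6 libraries, raw UMI counts per gene and barcode without normalization. The file headers name cellranger 6.1.2 and the submitters' processing notes name mm10, Cell Ranger and Seurat, whereas the methods give another Cell Ranger version, a human reference and a 3′ kit and the labels a 5′ kit. Annotation and handling of reads that map to several genes are not given in the sources used here. The members and gene lists were chosen with earlier results of these data known.

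Cells were gated by the share of UMIs on marker genes. The gate limits were set after the marker shares had been seen. No doublet caller was run, but 10 cells with several secretory lists were left out and cells with at least 0.5% T or NK markers were kept out of the epithelial classes. Sums of UMI counts per library and class went into edgeR 4.0.16 (R 4.3.3). Genes were kept by filterByExpr at its minimum count of 10, libraries scaled by TMM, and robust quasi-likelihood tests called at a Benjamini-Hochberg adjusted p under 0.05 over all genes. Interactions carried the library as a block. DESeq2 1.42.0 was an alternative. The other alternatives were library totals in place of TMM, every gene with a UMI, a stricter filter on cells (at least 500 genes, at most 25% mitochondrial UMIs), removal of the 8% of cells with the most UMIs, an enterocyte gate of 6%, counts thinned to the lowest total, the replicate number as a block and each library left out. Cells of at least 8000 UMIs and cells low in ileal genes were chosen after seeing the data. Chi-square per degree of freedom was 6.06 to 18.7 between libraries of 1 label, so none was a copy. On simulated enterocyte-like counts of 12362 genes the test recovered 195 of 200 genes changed by 1 on the log2 scale, and 173 of 200 on simulated lower and upper parts of the villus (11279 genes). For goblet-like against enterocyte-like differences it recovered 135 of 200 (12142 genes), at a smaller spread between libraries than the fit found. Each animal gave 1 library, and intervals cover these animals only.

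Named genes were the 8 members, from each of the 3 lists of other genes those called with the 4 largest absolute changes among genes of at least 10 CPM, for each member the 3 genes of highest r among genes reaching 20 CPM in a sum, and Elavl1 and region markers where a result turned on them. One gene that this rule names is not reported here. Ces1d, Ces1e, Ces2h, Ces3a and Ache were named after their values had been seen. Positions are from GENCODE M21 and promoters from RefSeq (GRCm38.p6).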

Additional observations from a re-analysis of the deposited data

Results flagged for a closer look

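The difference between labels was larger at the upper than at the lower end of the villus index for Aadac (interaction −1.19 on the log2 scale) and for Bche (−0.93), as tested in the report. In that test 24.6% of all genes tested were called. With each library left out in turn the interaction of Aadac was between −1.40 and −0.89 and that of Bche between −0.98 and −0.77. By this index both genes fell toward the tip in all 6 libraries. With tip genes alone both rose toward it in the control libraries (mean log2 ratios 0.94 and 0.37) and fell in the labelled ones (−0.57 and −0.87). By the index, the upper part of the labelled libraries held 5.58 ± 2.03 CPM of Aadac and 9.66 ± 0.743 CPM of Bche (SD, n = 3). T or NK-like cells of these libraries, which should lack both RNAs, held 0.837 ± 0.401 and 3.11 ± 0.710 CPM. In the control libraries the upper part held 40.7 ± 1.25 and 64.3 ± 1.33 CPM, and T or NK-like cells 11.6 ± 2.58 and 19.8 ± 8.77 CPM. The part of such RNA in the interactions was not tested. Outlying libraries were not looked for, since groups of 3 are too small.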

How the results depend on the processing

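Under the alternatives for enterocyte-like cells, listed with the processing, the number of genes called stayed within 1.5 times of 7282 (6700 to 7035 with 1 library left out). Members called lower numbered between 5, in cells low in ileal genes (27.2% of all genes), and 8, without TMM (50.4%). Leaving out 1 library left 6 members lower, where 3281 to 3560 genes were called lower, and 36 to 41 of the other esterase and hydrolase genes called. In goblet-like cells 2479 genes were called, against 1571 with DESeq2 and 981 in the cells low in enterocyte markers (1866 to 2389 with 1 library left out). Of the position interaction, 2797 genes were called against 1382 with DESeq2 (2176 to 2478 with 1 library left out). Its 2 called members became 4 with tip genes alone (2797 of 11116 genes called), with DESeq2 (1382 of 8343) and without the filter (2758 of 19941). There were also 4 in cells low in ileal genes (2304 of 11219) and 5 without TMM (3053 of 11367). With 1 library left out 2 to 6 were called. IE-HuR-/- replicate 2 left out gave 4 (2243 of 11578 genes) and replicate 3 gave 6 (2478 of 11569). Aadac and Bche were called lower in all of these fits. The added calls went both ways: Ces2a was called higher with tip genes alone, and Ces2a and Ces2c higher with DESeq2 and without either of these 2 libraries. The class interaction called 541 genes, 916 without the filter and 246 to 838 with 1 library left out. Leaving out control replicate 1 gave 286 and control replicate 2 gave 246. For IE-HuR-/- the counts were 349, 838 and 282 for replicates 1, 2 and 3. Its count of members went from 0 to 4 in goblet-like cells low in enterocyte markers, where 665 of 12293 genes were called. It was 3 without the filter, where 916 of 20991 genes were, and between 0 and 3 with 1 library left out. Control replicate 3 left out gave 1, where 389 of 12398 genes were called, and IE-HuR-/- replicate 2 left out gave 3, where 838 of 12378 were. Without TMM the higher and lower calls went from 1328 and 1151 to 743 and 2332 in goblet-like cells and from 1129 and 1668 to 784 and 2269 for the position interaction, and with DESeq2 to 1044 and 527 and to 924 and 458. With tip genes alone no member was lower in the upper part in all 6 libraries, and mean log2 ratios turned to 1.29 (control) and 1.04 (IE-HuR-/-) for Ces1g, 0.56 and 0.15 for Ces2e, and, in the control libraries, 0.94 for Aadac and 0.37 for Bche. The causes were not tested.

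No sign was found that replicate numbers pair the animals: deviations of same-numbered libraries correlated at −0.05, −0.13 and −0.01. Those of libraries with unlike numbers correlated at −0.04 to 0.09, and groups of 3 are too small to decide this. With the replicate number as a block 7371 genes were called in enterocyte-like and 2494 in goblet-like cells. Depth limits Ces2b and Ces1g outside enterocytes, and Aadac in goblet-like cells low in enterocyte markers.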
